A study of Mus musculus with 15 samples.

Results

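YAP (gene Yap1) and TAZ (gene Wwtr1) are related transcriptional coactivators that sense cell contact, tension and attachment to matrix. They bind no DNA themselves and act through TEAD proteins. The kinase cascade of the Hippo pathway, which ends in LATS1 and LATS2, phosphorylates both and keeps them out of the nucleus. In the intestine the pair is known for its part in repair of the epithelium and in tumors that arise after loss of Apc. The RNA described here is that of 10 genes of this system, out of 27179 in the count table. They are the coactivators Yap1 and Wwtr1, the DNA-binding partner Tead1, and the matricellular protein genes Ccn1 and Ccn2, formerly Cyr61 and Ctgf. The others are Ajuba, Amotl2 and Lats2, which restrain or adjust the pathway and are also targets of it, and the targets Axl and Ankrd1. The genes were taken by name, as rows whose Entrez identifier maps to these symbols. The rule holds no threshold on a measured value, but the list was drawn up with earlier results of these data known. All 10 were in the table. In mm10 they lie at chr9:7931999-8004596 (Yap1, minus strand), chr3:57455644-57575910 (Wwtr1, minus), chr7:112679320-112906805 (Tead1, plus), chr3:145646971-145649985 (Ccn1, minus) and chr10:24595442-24598683 (Ccn2, plus). Ajuba is at chr14:54567469-54577661 (minus), Amotl2 at chr9:102717804-102733417 (plus), Lats2 at chr14:57689662-57746123 (minus), Axl at chr7:25756500-25788733 (minus) and Ankrd1 at chr19:36111965-36119844 (minus). Counts were summed over the exons of each gene.

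The mice carried the Lrig1-eGFP-IRES-CreERT2 allele together with APCmin. APCmin is an Apc mutation that gives intestinal tumors, and the eGFP of the other allele reports expression of Lrig1, a transmembrane regulator of growth factor receptors found in stem and progenitor cells of the gut. Normal epithelium and tumors of the colon came from mice of this 1 genotype, so no group lacks the Apc mutation in its germline. Cells positive for EpCam and free of the lineage markers CD45 and CD31 were sorted into Lrig1-low and Lrig1-high fractions, without culture or other treatment. The groups are normal Lrig1-low (libraries S01, S05, S09 and S13), normal Lrig1-high (S02, S06, S10 and S14), tumor Lrig1-low (S03, S07, S11 and S15) and tumor Lrig1-high (S04, S08 and S12). The labels name no mouse, sex or age, so each p-value rests on the variation from library to library, which may be technical in part.

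Totals were 9508505 to 17296536 counts in 14 libraries, with the lowest in S08. Genes with a count numbered 11995 in S12, 12900 in S08 and 14642 to 16425 in the others. S15 held 357 counts and was left out, which left 3 tumor Lrig1-low libraries. Lrig1 RNA went against the labels in 4 libraries and groups are named here by their labels. It stood at 85.5 CPM (counts scaled to a common library total) in S09 and 142 CPM in S07, both labelled Lrig1-low, against 43.0 to 54.0 CPM in the other libraries of that label. In S10 and S08, both labelled Lrig1-high, it was 36.4 and 55.7 CPM, against 72.5 to 148 CPM in the others. The 72.5 CPM is that of S12, and these CPM include TMM scaling factors. Without the factors S12 held 50.7 CPM of Lrig1, within the 41.5 to 53.8 CPM of S01, S03, S05, S11 and S13. That is also below the 64.2 CPM of S08, so the agreement of S12 with its label depends on the scaling. All 8 epithelial markers were above 1 CPM in every library. Small intestine markers summed to 913 to 8237 CPM and colon markers to 0.649 to 22.2 CPM, with 2 of the 6 colon markers at 0 throughout, so the colon is named from the labels only. Genes encoded in mitochondria took 14.1% to 29.8% of counts, and 49.5% in S12. In sorted bulk samples, a change in the share of cells that express a gene and a change in RNA per cell cannot be told apart.

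The windows of 250 bases before the annotated gene start are shown first, since these genes are grouped by their link to TEAD. RefSeq windows (GRCm38.p6) were found for 8 of the 10 genes, all but Tead1 and Ccn2. The core of the site that TEAD proteins bind was searched as the letters GGAATG or, for the other strand, CATTCC. It was found in 7 of the 8 windows, all but that of Lats2, against 12.6% of the 32851 windows of all genes. Lats2, like Wwtr1, had 2 windows listed, and only the window nearest the annotated gene start was used for this count. The share over all genes counts every window listed for a gene. Since the 10 genes were grouped by their link to TEAD, the comparison is a description and no test. Among other genes of the Hippo pathway 10 of 27 windows held it, and among other reported YAP and TAZ targets 4 of 20. Ajuba and Ankrd1 each held a pair of matches. The AP-1 type letters TGANTCA, read on both strands, were in 0 of the 8 windows and in 6.75% of all windows, and 0.947% of all windows held both motifs. Such a match is a run of letters and no evidence of binding. The 5 windows below belong to genes whose levels are followed in detail, and capitals mark the TEAD-type letters. Each is printed 5′ to 3′ on the strand of its gene and ends at the base before the gene start: Wwtr1 at chr3:57575911-57576160 (minus strand, 1 of 2 windows listed for the gene), Ccn1 at chr3:145649986-145650235 (minus), Ajuba at chr14:54577662-54577911 (minus), Amotl2 at chr9:102717554-102717803 (plus) and Ankrd1 at chr19:36119845-36120094 (minus).
Wwtr1: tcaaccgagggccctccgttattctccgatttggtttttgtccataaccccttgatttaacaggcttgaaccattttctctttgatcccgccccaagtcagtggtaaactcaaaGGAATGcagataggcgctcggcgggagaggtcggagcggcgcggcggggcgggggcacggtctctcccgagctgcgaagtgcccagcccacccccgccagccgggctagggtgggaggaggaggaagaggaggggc
Ccn1: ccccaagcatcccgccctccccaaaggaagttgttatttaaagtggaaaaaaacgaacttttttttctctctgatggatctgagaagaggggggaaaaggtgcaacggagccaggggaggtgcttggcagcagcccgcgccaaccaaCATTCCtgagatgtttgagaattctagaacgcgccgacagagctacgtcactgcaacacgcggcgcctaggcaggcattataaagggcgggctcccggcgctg
Ajuba: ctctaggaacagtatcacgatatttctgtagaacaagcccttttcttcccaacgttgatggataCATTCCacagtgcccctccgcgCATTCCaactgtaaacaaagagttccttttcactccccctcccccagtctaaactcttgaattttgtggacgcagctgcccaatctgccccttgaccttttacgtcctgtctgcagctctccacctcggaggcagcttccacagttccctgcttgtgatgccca
Amotl2: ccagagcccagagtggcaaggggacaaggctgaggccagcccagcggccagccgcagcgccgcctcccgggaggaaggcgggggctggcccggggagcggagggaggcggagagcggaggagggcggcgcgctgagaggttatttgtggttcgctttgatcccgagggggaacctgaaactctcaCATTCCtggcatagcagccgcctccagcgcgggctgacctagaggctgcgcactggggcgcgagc
Ankrd1: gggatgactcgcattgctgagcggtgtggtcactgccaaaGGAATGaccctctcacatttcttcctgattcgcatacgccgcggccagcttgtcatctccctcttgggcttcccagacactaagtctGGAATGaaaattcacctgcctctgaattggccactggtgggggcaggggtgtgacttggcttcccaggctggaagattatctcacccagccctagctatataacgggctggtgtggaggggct
The matches began 136 bases before the start in Wwtr1, 103 in Ccn1, 186 and 164 in Ajuba, 65 in Amotl2, and 210 and 123 in Ankrd1. In Yap1 and Axl, whose windows are not printed, they began 141 and 233 bases before it.

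**Figure D1:**
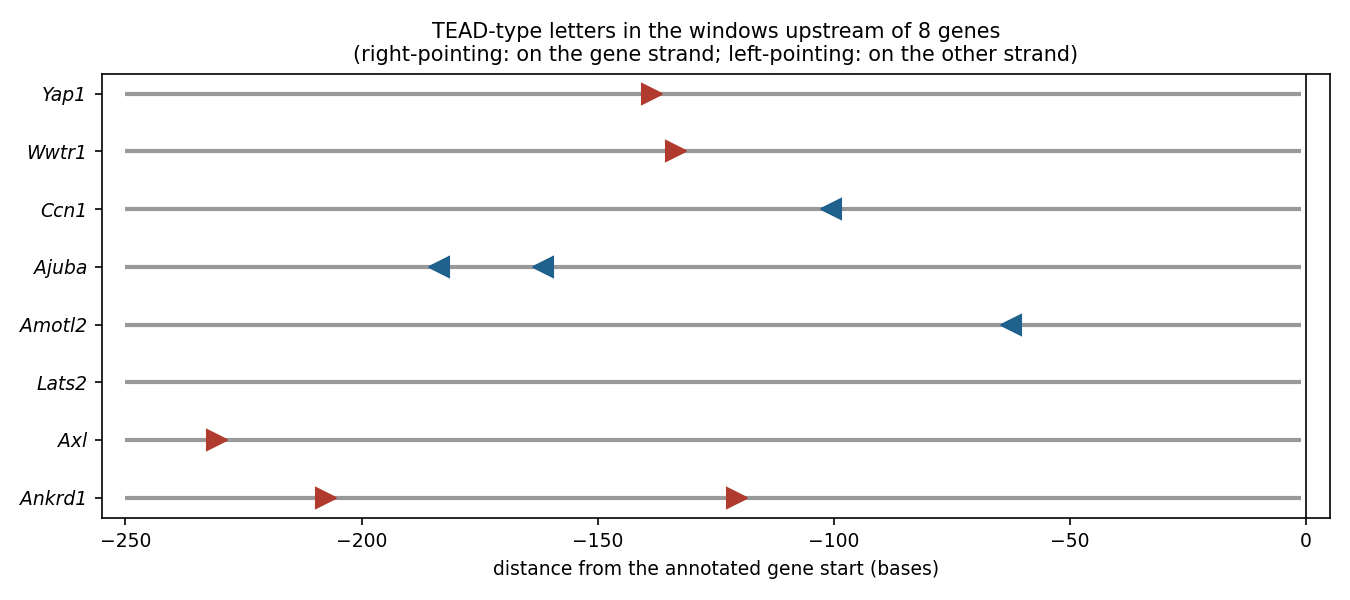
Position of the TEAD-type letters (arrowheads, pointing right on the strand of the gene and left on the other strand) in the 250 bases before the annotated start of 8 genes, with the distance from the start in bases on the horizontal axis. There are 9 matches in 7 genes, and the window of Lats2 shown, 1 of 2 listed for that gene, has none.

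Per kilobase of transcript, Yap1 was the most abundant of the 10, at 18.8 ± 4.36 CPM per kilobase (SD, n = 14), above Tead1 in 14 of 14 libraries. Tead1 followed at 5.82 ± 2.20, Ccn1 at 4.30 ± 3.12 and Amotl2 at 3.03 ± 1.48 CPM per kilobase. Tead1 and Ccn1 did not differ beyond their spread, with Tead1 above in 10 of 14 libraries, nor did Ccn1 and Amotl2, with Ccn1 above in 8 of 14. Ajuba (1.72 ± 1.999), Wwtr1 (1.52 ± 2.09) and Lats2 (1.11 ± 0.834 CPM per kilobase) formed a lower tier whose order changed from library to library. Ccn2, Ankrd1 and Axl lay at or near the detection limit, at 0.104 ± 0.352, 0.0354 ± 0.0963 and 0.00672 ± 0.0140 CPM per kilobase. These cells thus held far more RNA for YAP than for TAZ. The ratio of Yap1 to Wwtr1 per kilobase was 69.8 to 89.5 in S01, S05 and S13, and 14.6 in S09, the fourth normal Lrig1-low library. It was 14.6 to 29.2 in the normal Lrig1-high libraries and 6.70, 14.2 and 3.42 in S03, S07 and S11 of the tumor Lrig1-low group. In the tumor Lrig1-high group it was 12.6 in S04, 16.1 in S08 and 76.5 in S12.

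Tead1 is 1 of 4 genes for TEAD proteins, and the others are named here outside the rule for named genes because of that kinship. Tead3 had the level nearest to Tead1, at 6.36 ± 2.31 CPM per kilobase (SD, n = 14), followed by Tead2 at 3.82 ± 3.62 and Tead4 at 0.497 ± 0.284. In tumors over normal epithelium, Tead2 had a log2 fold change of 2.06 ± 0.51 (SE), with an edgeR adjusted p of 0.0534 that missed the threshold. Tead3 stood at −0.36 ± 0.45 and Tead4 at 1.11 ± 0.51, with edgeR adjusted p of 0.741 and 0.283.

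The comparison of tumor with normal libraries, with the fractions weighted equally, asks whether tumor cells carry more RNA of the coactivators, their partner and their targets. Of the 10 genes, 7 passed the filter on low counts and were tested, and Tead1 was the 1 gene called at an adjusted p under 0.05 in edgeR's quasi-likelihood test. The call was an increase in tumors. Over all 13883 genes tested, 2.22% were called in either direction. All 7 fold changes were positive, with a median log2 fold change of 0.84 against −0.02 over all genes.

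Tead1 was measured at 29.8, 44.9, 32.5 and 34.5 CPM in the normal Lrig1-low libraries S01, S05, S09 and S13, and at 55.9, 66.2, 43.8 and 41.9 CPM in the normal Lrig1-high libraries S02, S06, S10 and S14. In tumors it was at 63.4, 67.7 and 101 CPM in S03, S07 and S11, and at 60.1, 76.5 and 93.1 CPM in S04, S08 and S12. The tumor libraries were the higher ones, and the overlap came from S06, a normal Lrig1-high library above the lowest 2 tumor libraries. The log2 fold change was 0.84 ± 0.17 (SE), with an edgeR adjusted p of 0.0297. The fold change lay between 0.62 and 0.91 under 22 other settings and stayed past the threshold in 13 of them. Leaving out S01, S02, S11, S13 or S14 alone ended the call, and the highest adjusted p over the settings was 0.0992.

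Yap1 was tightly grouped in normal Lrig1-low cells, at 58.0, 62.8, 59.8 and 56.8 CPM in S01, S05, S09 and S13. It was at 72.4, 82.1, 69.3 and 82.4 CPM in the normal Lrig1-high libraries S02, S06, S10 and S14. In tumors it reached 78.6, 83.2 and 119 CPM in S03, S07 and S11, and 88.2, 75.6 and 108 CPM in S04, S08 and S12. Every tumor library lay above every normal Lrig1-low library, while tumor and normal Lrig1-high libraries overlapped. Over both fractions the log2 fold change of 0.45 ± 0.13 (SE) missed the threshold, with an edgeR adjusted p of 0.0822.

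Wwtr1 ranged from 0.805 to 39.9 CPM over the 14 libraries. It was near 1 CPM in 3 normal Lrig1-low libraries, with 0.815 in S01, 0.805 in S05 and 0.933 in S13, and stood at 4.69 CPM in S09. The normal Lrig1-high libraries held 5.68, 5.56 and 5.36 CPM in S02, S06 and S14 and 2.73 CPM in S10. Within each normal group the library that stands apart is thus one whose Lrig1 RNA went against its label. S09 and S10 also held the highest or lowest value of their group for Ccn1, Amotl2 and Lats2. In tumors the Wwtr1 values were 13.4, 6.73 and 39.9 CPM in S03, S07 and S11, and 8.01, 5.38 and 1.62 CPM in S04, S08 and S12. Over both fractions the log2 fold change was 1.75 ± 0.55 (SE) and the edgeR adjusted p 0.112. Without S07, S08, S09 and S10, which were picked by their Lrig1 level, it was 2.38 and Wwtr1 was the 1 gene called in place of Tead1, with 4.71% of all genes called.

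**Figure D2:**
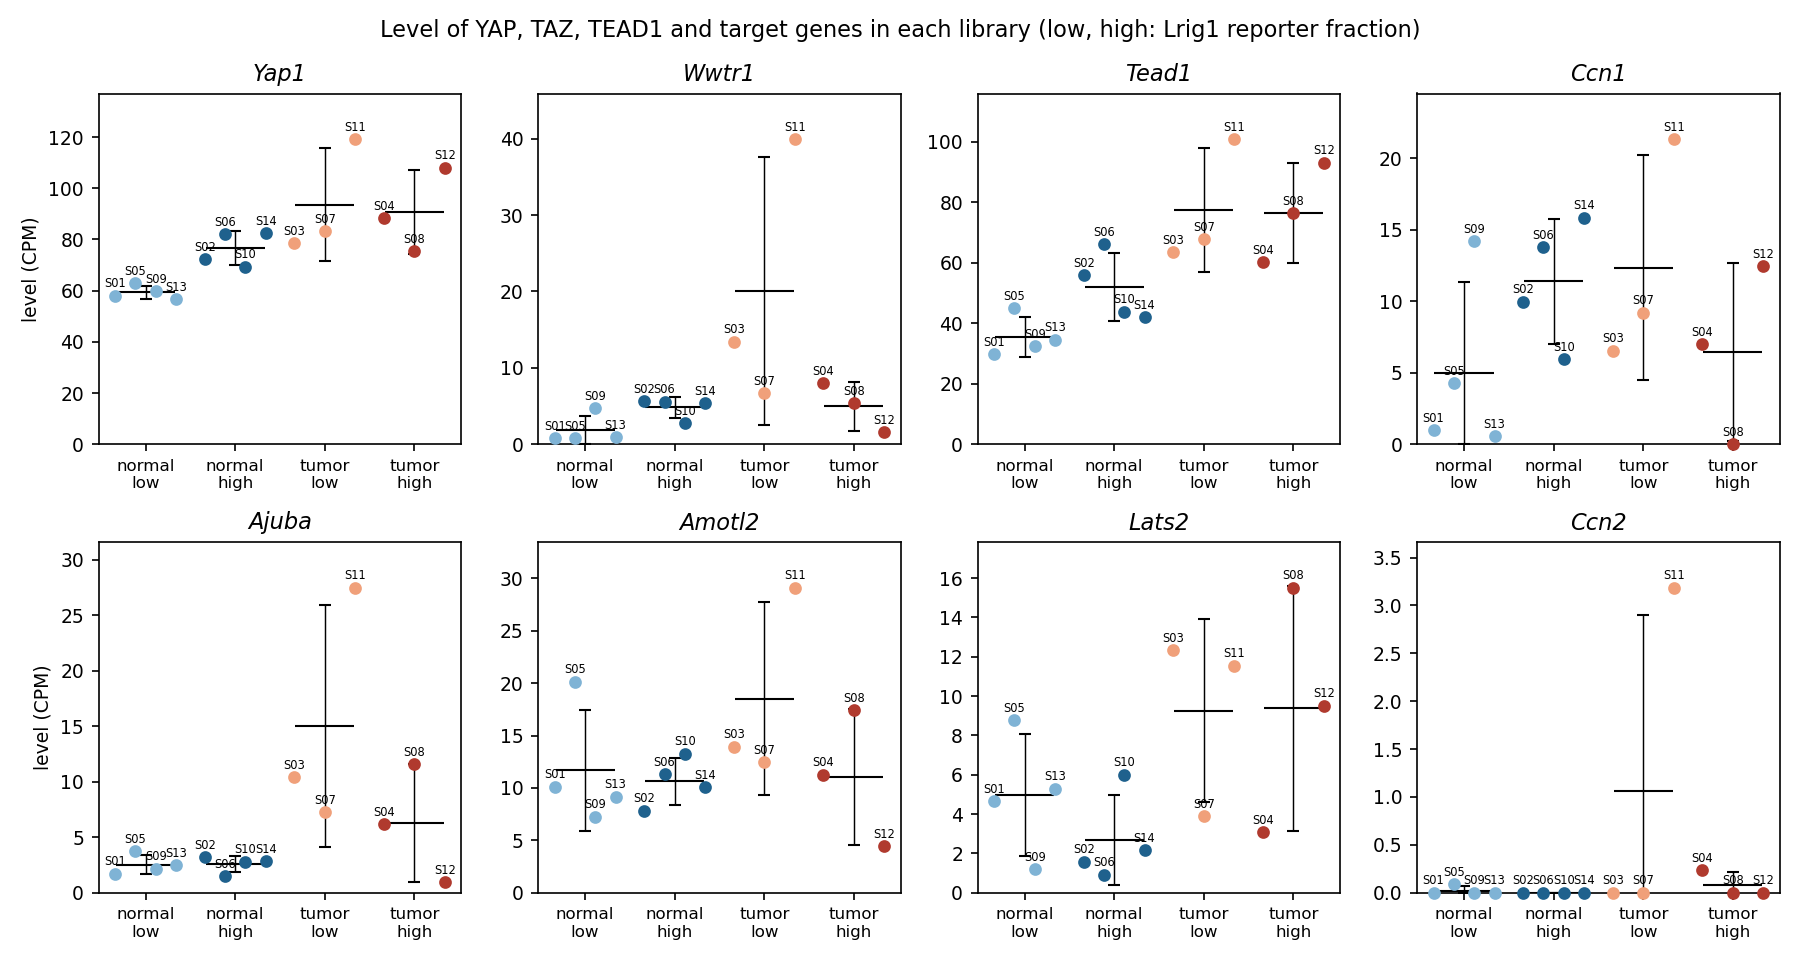
Level in CPM (linear axes from 0) of 8 of the genes in each of the 14 libraries, by group, where low and high are the Lrig1 fractions, points are libraries, bars are group means and whiskers are SD, cut at 0. S11 is the highest library in every panel but Lats2, where S08 is, and Ccn2 is near 0 outside S11.

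Ajuba, a LIM-domain protein that binds LATS kinases, was at 1.52 to 3.76 CPM in all 8 normal libraries. In tumors it was at 10.4, 7.24 and 27.5 CPM in S03, S07 and S11, and at 6.18 and 11.6 CPM in S04 and S08. S12 fell outside this pattern, at 0.973 CPM, the lowest of all 14 libraries. The log2 fold change over both fractions was the largest of the 7, at 1.92 ± 0.49 (SE), and missed the threshold with an edgeR adjusted p of 0.0600. Without S12 the fold change was 2.12, and Ajuba was called beside Tead1, with 1.84% of all genes called. Without S11 and S12 together Ajuba was the 1 gene called of the 7, with 0.453% of all genes.

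Lats2, the kinase that phosphorylates YAP and TAZ, was at 4.65, 8.77, 1.19 and 5.29 CPM in S01, S05, S09 and S13, and at 1.58, 0.927, 6.001 and 2.17 CPM in S02, S06, S10 and S14. Tumor libraries held 12.3, 3.91 and 11.6 CPM in S03, S07 and S11, and 3.09, 15.5 and 9.51 CPM in S04, S08 and S12. The 4 highest libraries were tumor libraries, and S04 and S07 lay within the normal range. The log2 fold change was 1.35 ± 0.55 (SE), with an edgeR adjusted p of 0.219.

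Amotl2, an angiomotin-like protein that holds YAP at cell junctions, overlapped fully between tissues. It was at 10.1, 20.1, 7.26 and 9.18 CPM in S01, S05, S09 and S13, and at 7.82, 11.3, 13.3 and 10.1 CPM in S02, S06, S10 and S14. The tumor values were 13.9, 12.5 and 29.1 CPM in S03, S07 and S11, and 11.3, 17.4 and 4.43 CPM in S04, S08 and S12. The highest and the lowest library were both tumor libraries. Its log2 fold change was 0.36 ± 0.35 (SE), with an edgeR adjusted p of 0.650.

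Ccn1, a secreted matricellular protein and a standard readout of YAP activity, had the largest standard error of the 7 genes in this comparison. In normal Lrig1-low cells it was at 0.978, 4.30, 14.2 and 0.544 CPM in S01, S05, S09 and S13, and in normal Lrig1-high cells at 9.97, 13.8, 5.94 and 15.9 CPM in S02, S06, S10 and S14. The tumor Lrig1-low libraries held 6.55, 9.20 and 21.3 CPM in S03, S07 and S11, while the tumor Lrig1-high libraries held 6.98 CPM in S04, 12.4 CPM in S12 and no count in S08. A count of 0 in S08 allows up to 0.274 CPM (3 counts), so this library lay below both others of its group by more than counting error. S08 also had few genes with a count, 12900, and whether this bears on the 0 was not tested. The log2 fold change of 0.24 ± 0.82 (SE), with an edgeR adjusted p of 0.915, left tumors and normal tissue within the spread between libraries.

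Ccn2, Ankrd1 and Axl did not pass the filter, and their counts are given instead. Ccn2, the connective tissue growth factor gene, had 43 counts in S11 (3.18 CPM, exact Poisson 95% interval 2.30 to 4.29 CPM), 3 in S04, 1 in S05 and 0 in the other 11 libraries. Ankrd1, an ankyrin-repeat protein of stressed muscle and a standard YAP target, had 8 counts in S11 and 4 in S03, at 0.592 CPM (0.256 to 1.17) and 0.282 CPM (0.0767 to 0.721), and 0 elsewhere. Axl, a receptor tyrosine kinase, had 2 counts in S03, 2 in S07 and 3 in S11, and 0 elsewhere. The few Axl and Ankrd1 counts of the data set were thus all in tumor Lrig1-low libraries. S11 and S03 were also the libraries with the most genes with a count, 16425 and 16077. How many other genes near 0 had counts in tumor Lrig1-low libraries alone was not counted. A count of 0 allows up to 0.172 to 0.324 CPM depending on the library, and intervals and limits cover counting error only. Axl thus had a count in 3 of 3 tumor Lrig1-low libraries and in 0 of the other 11, at or below the level of 3 counts. The Ccn2 and Ankrd1 counts came mostly from S11. In the fit with no filter, the edgeR adjusted p of tumor over normal in the Lrig1-low fraction was 0.418 for Axl, 0.417 for Ccn2 and 0.422 for Ankrd1.

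Within the Lrig1-low fraction all 7 fold changes were again positive. None of the 7 passed in edgeR, where 4 had an unadjusted p under 0.05, as had 14% of all genes, and 0.331% of all genes were called. The 4 were Yap1, Wwtr1, Tead1 and Ajuba, and in each of them all 3 tumor libraries lay above all 4 normal ones, which held in that direction for 9.95% of all genes tested. The median log2 fold change of the 7 was 1.13 against 0.02 over all genes. Wwtr1 had the largest, at 3.45 ± 0.81 (SE), with an edgeR adjusted p of 0.0709. It was followed by Ajuba at 2.57 ± 0.71, Tead1 at 1.13 ± 0.24 and Yap1 at 0.66 ± 0.18, with edgeR adjusted p of 0.106, 0.0575 and 0.103. Ccn1 (1.30 ± 1.16), Lats2 (0.90 ± 0.77) and Amotl2 (0.67 ± 0.49) overlapped between tissues.

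Other tools drew the line elsewhere. DESeq2 called 4 of the 7 genes higher in the Lrig1-low fraction and the same 4 over both fractions, namely Yap1, Wwtr1, Tead1 and Ajuba, where it called 5.09% and 7.64% of all genes. The sample-weighted limma-voom fit called those 4 in the Lrig1-low fraction, with 10% of all genes, and Wwtr1 and Ajuba over both fractions, with 3.95%. Without S12, edgeR called Wwtr1, Tead1 and Ajuba in the Lrig1-low fraction, with 1.98% of all genes. Without S11, the Wwtr1 value there fell to 2.46 and no gene of the 7 was called.

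In the Lrig1-high fraction 6 of the 7 fold changes were positive, and 6 of the 7, all but that of Lats2, were below their Lrig1-low values. edgeR called 0 of 7 genes and 0% of all genes, and neither DESeq2 nor limma-voom called any of the 7. Tead1 and Lats2 had an unadjusted edgeR p under 0.05, as had 11.2% of all genes. Without S04, 807 of all genes were called in this comparison, 365 between tumor fractions and 157 in the interaction, and 0 of the 7 in each. Lats2 had the largest log2 fold change, at 1.81 ± 0.78 (SE, edgeR adjusted p 0.414), ahead of Ajuba at 1.27 ± 0.69 and Tead1 at 0.56 ± 0.24. Wwtr1, which differed most in the Lrig1-low fraction, stood at 0.05 ± 0.77, and Ccn1 at −0.82 ± 1.19. The test of the difference between the fractions, an interaction term, called 0 of 7 genes and 0% of all genes in edgeR, and 0 of 7 in DESeq2 and limma-voom. Wwtr1 had the largest interaction at −3.39 ± 1.13 (SE), with an edgeR adjusted p of 0.685. It was the 1 gene of the 7 with an unadjusted p under 0.05, against 7.2% of all genes.

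**Figure D3:**
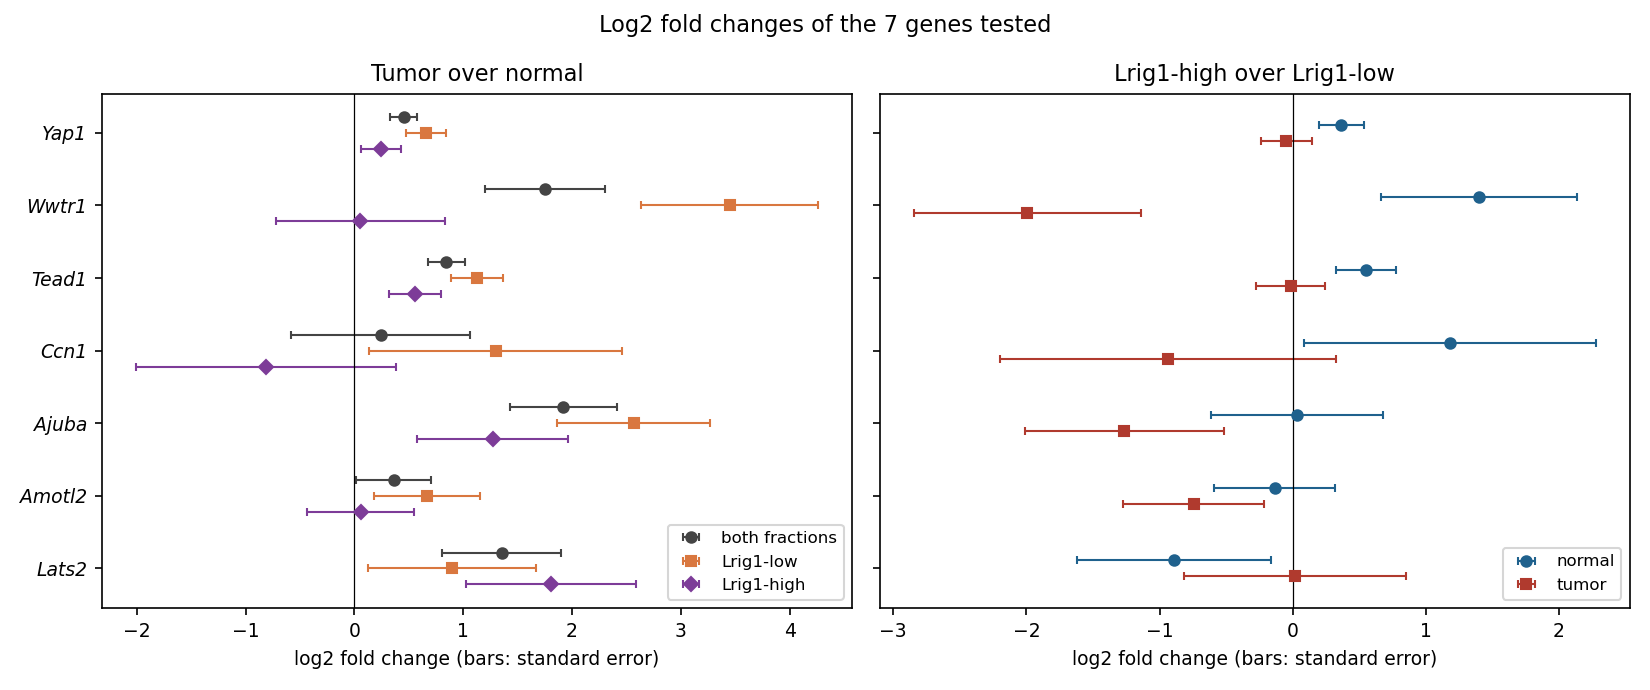
Log2 fold changes (points) with standard errors (bars) from edgeR for the 7 genes tested, for tumor over normal libraries (left) and for Lrig1-high over Lrig1-low libraries (right). Wwtr1 stands at 3.45 in the Lrig1-low and 0.05 in the Lrig1-high fraction on the left, and at 1.40 in normal and −1.99 in tumor libraries on the right.

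The comparison of Lrig1-high with Lrig1-low cells asks whether these genes differ between the fractions as labelled. Lrig1 RNA itself had a log2 fold change of 0.92 ± 0.47 (SE) in normal epithelium and 0.22 ± 0.54 in tumors. edgeR called Lrig1 in neither. In normal epithelium, Yap1 was higher in all 4 Lrig1-high than in all 4 Lrig1-low libraries, the 1 gene of the 7 without overlap, against 1.63% of all genes in that direction. Its log2 fold change was 0.37 ± 0.17 (SE). edgeR called 0 of 7 genes and 0% of all genes, and every edgeR adjusted p of the 7 was 1. Yap1 and Tead1 (0.55 ± 0.22) had an unadjusted p under 0.05, as had 3.59% of all genes. Wwtr1 stood at 1.40 ± 0.74, Ccn1 at 1.18 ± 1.10, Ajuba at 0.03 ± 0.65, Amotl2 at −0.13 ± 0.46 and Lats2 at −0.89 ± 0.73. DESeq2 called 0 of the 7. The sample-weighted limma-voom fit called Yap1, Wwtr1, Tead1 and Ccn1 higher and Lats2 lower, in a fit that called 30% of all genes. Without S07, S08, S09 and S10 edgeR called Wwtr1, at 2.70, with 5.69% of all genes, but those libraries were picked by their Lrig1 level, so this is not independent of the labels' contrast.

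In tumors none of the 7 genes was called between the fractions. edgeR called 0 of 7 genes and 0% of all genes, and DESeq2 and limma-voom called 0 of 7. Wwtr1 was the 1 gene of the 7 with an unadjusted p under 0.05, against 7.51% of all genes. Its log2 fold change was −1.99 ± 0.85 (SE, edgeR adjusted p 0.655), and −1.01 without S11. It was negative in 23 of 23 other settings, from −2.51 to −0.57, as was that of Ccn1. Ajuba (−1.26 ± 0.75), Ccn1 (−0.93 ± 1.26) and Amotl2 (−0.74 ± 0.53) were also on the negative side. Yap1, Tead1 and Lats2 stood at −0.05 ± 0.19, −0.01 ± 0.26 and 0.02 ± 0.83, signs that changed with the settings. These libraries are the same as in the tumor over normal comparisons, so the values are not independent of those.

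S11 was the highest library for 9 of the 10 genes, all but Lats2. It also had the highest sums of endothelial (192 CPM) and fibroblast (30.7 CPM) markers and of Wnt response genes (2065 CPM). The endothelial sums were 2.26 to 6.27 CPM in normal Lrig1-low, 2.17 to 40.7 CPM in normal Lrig1-high, 17.5 to 192 CPM in tumor Lrig1-low and 6.50 to 33.7 CPM in tumor Lrig1-high libraries. In S11 155 CPM of the endothelial sum came from Cdh5, 21.4 CPM from Vwf and 14.6 CPM from Tek, and each of the 3 was at its highest there. In the normal Lrig1-low libraries these 3 did not exceed 3.24, 1.12 and 2.94 CPM. Of the other 6 endothelial markers, Cldn5 and Emcn were at 0 in every library, Kdr did not exceed 0.222 CPM, Plvap 0.422 CPM and Tie1 0.0606 CPM, and Pecam1, which encodes the sorted-out CD31, did not exceed 1.85 CPM. Fibroblast markers summed to 0 to 1.92, 0 to 10.4, 0.287 to 30.7 and 0 to 1.27 CPM in the groups in the same order. In S11 Pdgfra made up 26.1 CPM and Pdpn 4.30 CPM of that sum, both at their highest there, and Pdpn was at 0 in every normal Lrig1-low library. Of the other 7 fibroblast markers, Lum was at 0 in every library and the highest value of any was 0.858 CPM, for Col1a1. S12, the lowest library for Ajuba and Amotl2, had the highest sum of smooth muscle and pericyte markers (36.2 CPM, against 2.05 to 8.81 CPM elsewhere), beside its mitochondrial share. Of the 8 markers of that list only 2 had a count in S12, Myh11 at 23.5 CPM and Acta2 at 12.8 CPM. S08, the library with no Ccn1 count and the most Lats2, had the highest leukocyte sum (57.1 CPM), with Ptprc, which encodes the sorted-out CD45, at 46.1 CPM. Only 2 of the 9 leukocyte markers had a count in S08, and the others were at 0 there. The part of these features in the values of the 10 genes was not tested beyond leaving the libraries out.

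**Figure D4:**
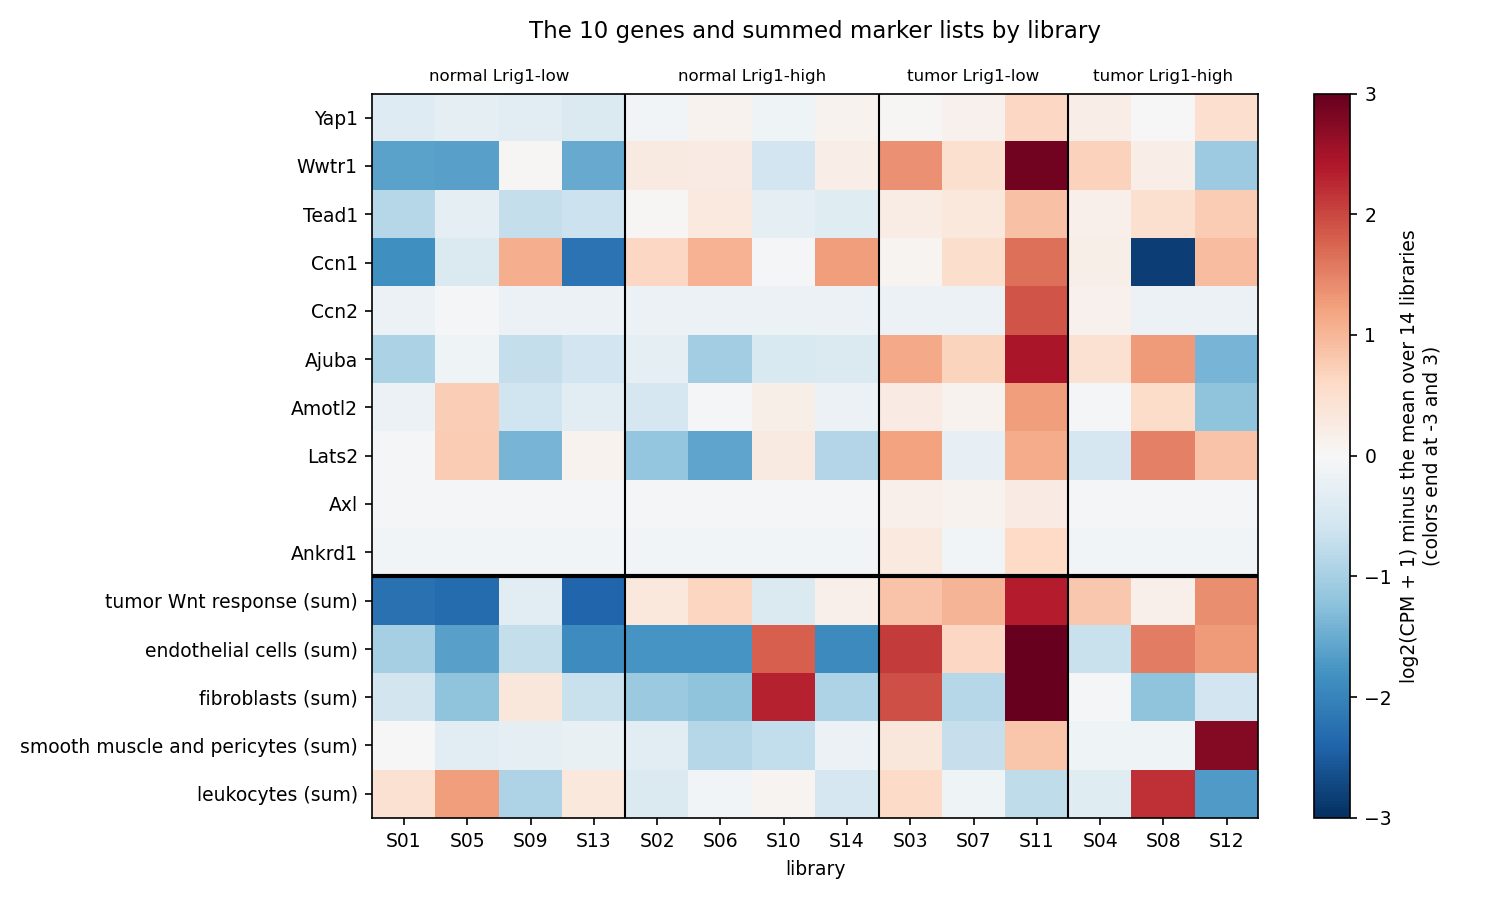
Level of the 10 genes and of 5 summed marker lists in each library, as log2(CPM + 1) minus the mean over the 14 libraries (red above, blue below, colors ending at −3 and 3), with libraries in columns by group. S11 is red for the coactivators and most targets and for the Wnt response, endothelial and fibroblast sums, and S12 and S08 differ from their group in several rows.

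Across the 14 libraries the genes did not move as 1 block. As a description of these libraries, which share group and depth, Pearson's r of log2(CPM + 1) was 0.889 for Yap1 with Tead1, 0.790 for Ajuba with Amotl2 and 0.777 for Wwtr1 with Ajuba. After group means were removed it was 0.624, 0.834 and 0.615. Ccn1 followed Yap1 (0.576, and 0.703 within groups) and stood at 0.00684 with Ajuba and −0.404 with Lats2. The genes most like Yap1 over the 14 libraries were Dyrk3 (0.939), Maged1 (0.935) and Il6st (0.934), and among those most like Wwtr1 were Csnk1e (0.953) and Lamb2 (0.940). Tead1 was most like Atxn10 (0.940), Phlda1 (0.922) and Cdk17 (0.921). For Ajuba they were Ptpn14 (0.958), Efemp2 (0.953) and Cavin1 (0.952), the first from the list of other Hippo pathway genes and the last from that of other targets. Ccn1 was most like Mios (0.918), Amotl2 most like Jarid2 (0.915) and Lats2 most like Gch1 (0.936).

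Of 32 other Hippo pathway genes, 29 were tested. Over both fractions 2 rose in tumors in edgeR and 0 fell, where 2.22% of all genes were called in either direction. The median log2 fold change of the 29 was 0.20 against −0.02 over all genes. Amotl1, an angiomotin-like partner of YAP, was at 0.0895 to 12.7 CPM in the 8 normal libraries. In tumors it was at 36.1, 24.1 and 130 CPM in S03, S07 and S11, and at 21.8, 15.1 and 46.8 CPM in S04, S08 and S12. Tumor and normal libraries thus did not overlap, which held in that direction for 0.886% of all genes tested. The log2 fold change of Amotl1 was 2.98 ± 0.70 (SE, edgeR adjusted p 0.0445). Ptpn14, a phosphatase that binds YAP, was at 0.311 to 2.85 CPM in normal libraries and at 5.55 to 26.9 CPM in 5 tumor libraries, but at 0.432 CPM in S12, with 2.63 ± 0.63 (edgeR adjusted p 0.0492). Leaving out any 1 of S01, S02, S03, S05, S06, S11, S13 or S14 left 0 of the 29 called, as did leaving out S11 and S12 together. Within the Lrig1-low fraction 0 of the 29 passed in edgeR, 8 had an unadjusted p under 0.05 (14% of all genes), DESeq2 called 4 (5.09% of all genes) and limma-voom 6 (10%), all higher. There the genes of the list with the highest level per kilobase, the protocadherin Fat1 and the kinases Stk38 and Taok3, stood at −0.28 ± 0.29, −0.51 ± 0.23 and −0.36 ± 0.29 (SE), with edgeR adjusted p of 0.817, 0.344 and 0.704.

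Of 28 other reported YAP and TAZ targets, 23 were tested. Over both fractions 5 of them rose in tumors and 0 fell in edgeR, where 2.22% of all genes were called in either direction. The median log2 fold change of the 23 was 0.55. The largest change was that of Anxa1, which encodes the phospholipid-binding annexin A1. It was at 0 to 0.815 CPM in 7 normal libraries and 7.27 CPM in S10, and at 24.9, 4.25 and 84.4 CPM in S03, S07 and S11 and 4.99, 27.8 and 23.2 CPM in S04, S08 and S12. Its log2 fold change was 4.73 ± 1.10 (SE, edgeR adjusted p 0.0439). Rbms3, an RNA-binding protein, stood at 4.36 ± 0.95, Arhgef17, a guanine nucleotide exchange factor, at 3.18 ± 0.60, Cavin1, a caveolar coat protein, at 2.50 ± 0.52, and Slit2, a guidance ligand, at 1.35 ± 0.29, with edgeR adjusted p of 0.0345, 0.0256, 0.0310 and 0.0338. Like Anxa1, Rbms3 and Arhgef17 had their highest normal value in S10, at 6.001 and 7.03 CPM, the normal library with the highest endothelial and fibroblast sums. Within the Lrig1-low fraction, where 0.331% of all genes were called, Arhgef17 was the 1 gene of this list called, at 4.96 ± 0.92 (edgeR adjusted p 0.0377). That call was kept in 5 of 14 fits that left out 1 library, those without S03, S07, S09, S10 or S12, and the adjusted p reached 0.236 without S11. Leaving out S11, or any of the 8 normal libraries except S09 and S10, left 0 of the 23 called over both fractions, and without S11 and S12 together 1 was called (0.453% of all genes). Over both fractions DESeq2 called 5 targets higher and 1 lower (7.64% of all genes), and limma-voom 5 higher and 1 lower (3.95%). In the Lrig1-low fraction DESeq2 called 7 higher and 0 lower (5.09%), and limma-voom 8 higher and 1 lower (10%). In the Lrig1-high fraction the transglutaminase Tgm2 and the tensin Tns3, abundant genes of the list, stood at −0.93 ± 0.39 and −0.04 ± 0.27, with edgeR adjusted p of 0.395 and 0.963. edgeR called 0 genes of either list there, in the comparisons of the fractions and in the interaction. At an unadjusted p under 0.05 there were 2 of 29 Hippo genes and 3 of 23 targets in the Lrig1-high fraction, where 11.2% of all genes were. There were 2 and 4 between normal fractions (3.59% of all genes), 1 and 2 between tumor fractions (7.51%), and 3 and 6 in the interaction (7.2%). In these 4 comparisons DESeq2 called 1 target, lower in tumor Lrig1-high cells. Limma-voom called 4 Hippo genes higher and 3 lower and 4 targets higher and 6 lower between normal fractions, in the fit that called 30% of all genes, and 0 in the others.

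**Figure D5:**
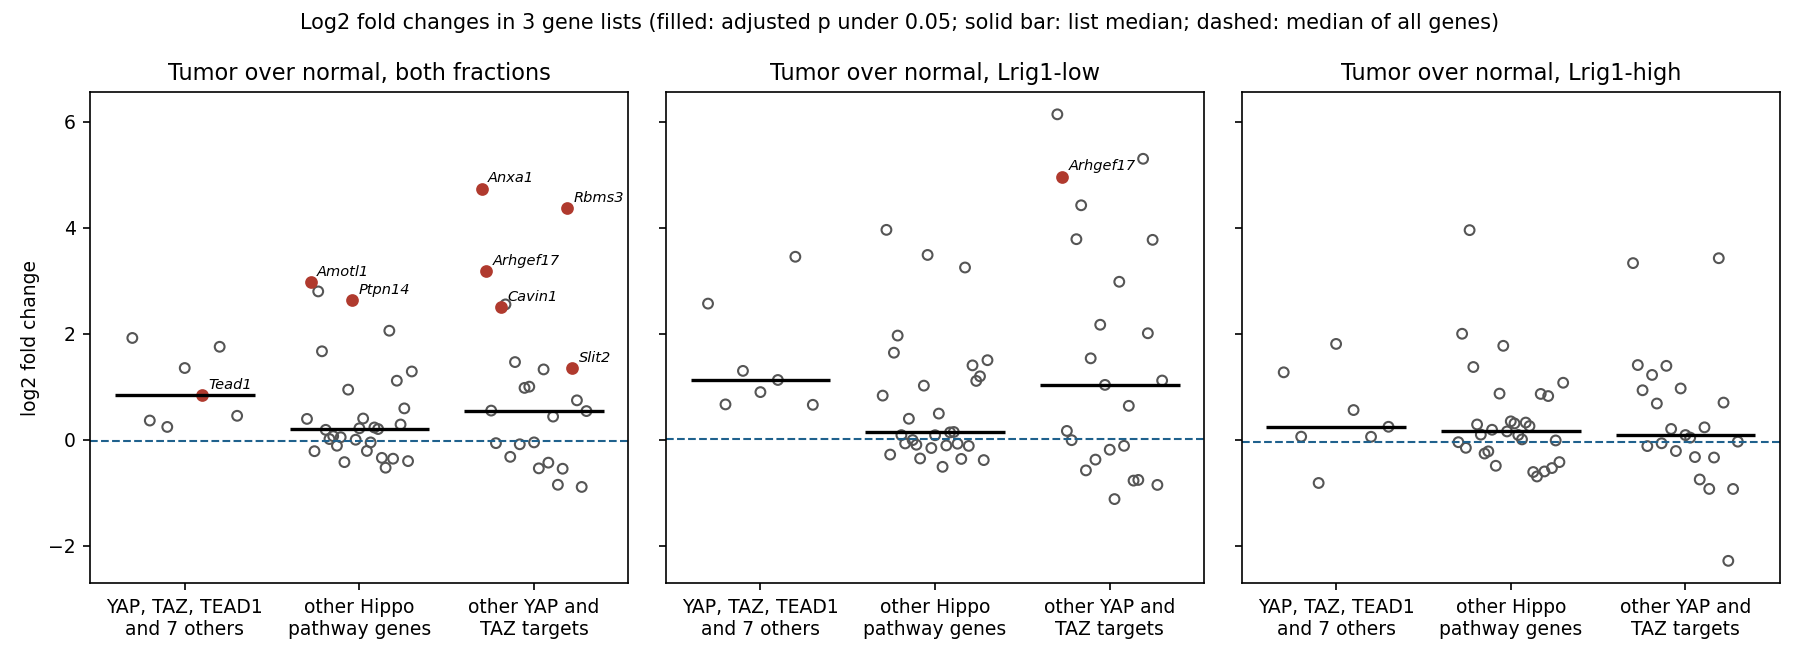
Log2 fold changes of tumor over normal libraries for the 7 tested genes of the YAP, TAZ and TEAD1 list, 29 other Hippo pathway genes and 23 other YAP and TAZ targets, over both fractions (left) and within the Lrig1-low (middle) and Lrig1-high (right) fractions, with filled points at an edgeR adjusted p under 0.05, solid bars at list medians and a dashed line at the median of all genes tested. Medians over both fractions are 0.84, 0.20 and 0.55, and filled points are absent on the right.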

How the data were processed

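Total RNA of EpCam+ cells sorted by the Lrig1 reporter was sequenced in pairs with a stranded kit, per the labels' protocols. The deposited values are whole-number counts over exons of mm10 RefSeq genes, made by the authors with featureCounts 1.5.3 on the reverse strand, per the file headers. Trimmomatic, HISAT2, Subread and mm10 are named in the submitters' processing notes. Entrez identifiers were matched to RefSeq symbols (25275 of 27179). The members and gene lists were chosen with earlier results of these data known.

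Libraries with fewer than 1000 counts were left out. CPM used TMM factors. After filterByExpr, edgeR 4.0.16 (R 4.3.3) fitted 14 libraries with 1 coefficient per group by its quasi-likelihood test, with Benjamini-Hochberg adjustment over 13883 genes and a threshold of 0.05. SE is the fold change over the square root of F. Alternatives used DESeq2 1.42.0, limma 3.58.1, other filters and sets of libraries. Of these steps, the edgeR comparison of tumor with normal libraries over both fractions was run on simulated counts with known fold changes. The other comparisons and tools were not run on simulated data.

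Named genes are all 10 members. Of each other list they are up to 5 called genes per comparison and direction or, with none called, the 3 with the highest level per kilobase. For each tested member they also include the 3 genes with the highest correlation over libraries, and here the first alone for Ccn1, Amotl2 and Lats2. Some genes that this rule names are not reported here.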

Additional observations from a re-analysis of the deposited data

Results flagged for a closer look

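Wwtr1 in 2 libraries lay far from the rest of its group. S09 held 4.69 CPM, against 0.805 to 0.933 CPM in the other 3 normal Lrig1-low libraries, a gap of 0.967 of the range of the group. S10 held 2.73 CPM, against 5.36 to 5.68 CPM in the other 3 normal Lrig1-high libraries, a gap of 0.891 of the range. In both, Lrig1 RNA also went against the label, at 85.5 CPM in S09 and 36.4 CPM in S10. Chance alone marks some groups in this way, about 1 in 20.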

How the results depend on the processing

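Of the 7 genes tested, the number called between tumor and normal libraries over both fractions was 1 in edgeR (2.22% of all genes). It was 4 with DESeq2 (7.64%) and 2 with limma-voom with sample weights (3.95%). Leaving out each library in turn gave 0 to 2. In the Lrig1-low fraction the number was 0 in edgeR (0.331%), 4 with DESeq2 (5.09%), 4 with limma-voom (10%) and 1 without S07, S08, S09 and S10 (3.23%). Leaving out each library in turn gave 0 to 3 there, with 0 to 285 of all genes called. Between normal fractions the number was 0 in edgeR (0%), 5 with limma-voom (30%) and 1 without S07, S08, S09 and S10 (5.69%). Over all genes, the number called over both fractions was 308 in edgeR and 34 to 1060 on leaving out each library in turn, and 1060 with DESeq2. The causes were not tested.

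Signs turned for small values. Tead1 between tumor fractions was 0.0011 with DESeq2, 0.0014 with DESeq2 size factors, 0.018 with no filter, 0.064 with S15 included, 0.064 without S11 and S12, and −0.14 to 0.22 on leaving out each library. Yap1 there was 0.038 with S15, 0.052 without S07, S08, S09 and S10, 0.027 without S11 and S12, and −0.15 to 0.16. Lats2 there was −0.83 with limma-voom, −0.87 without S07, S08, S09 and S10, and −0.56 to 0.44. Without S11 and S12, a choice made after seeing the data, Ajuba and Amotl2 there were 0.014 and 0.12, and the Amotl2 interaction was 0.24. Ccn1 over both fractions was −0.39 with limma-voom, −0.54 without S11 and S12, and −0.24 to 0.89. Without S07, S08, S09 and S10, Wwtr1 and Amotl2 in the Lrig1-high fraction were −0.16 and −0.28, and Ajuba between normal fractions was −0.054. On leaving out each library these were −0.46 to 0.45, −0.43 to 0.40 and −0.12 to 0.29, and Amotl2 between normal fractions was −0.28 to 0.28. Without TMM factors, 40 of 40 group means moved by no more than 1 SD. They include groups of Ccn2, Axl and Ankrd1 at 0 throughout, whose means could not move. In S12 alone, Tead1 went from 93.1 to 65.0 CPM and Yap1 from 108 to 75.5 CPM. No paired analysis was possible because each library number occurs once and the labels name no animal. Depth limits Axl in all libraries, and Ccn2 and Ankrd1 in those other than S11 and, for Ankrd1, S03, to values at or below the level of 3 counts, 0.172 to 0.324 CPM.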
